A study of Mus musculus with 22 samples.

Results

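The genes described here move acid and base across membranes or interconvert carbon dioxide and bicarbonate. They are the protein-coding genes of the mouse Slc4, Slc9 and Slc26 families and the carbonic anhydrases (Car) whose symbols stood in every table. Of 49671 gene identifiers, 44 were members; 5 further symbols of these families were left out, among them Slc26a5, which encodes prestin and carries the Cre recombinase in these mice. Slc4 proteins carry bicarbonate, in exchange for chloride or together with sodium. Slc9 proteins exchange sodium for protons at the cell surface or in endosomes and Golgi, and Slc26 proteins carry chloride, bicarbonate, sulphate and other anions. In the cochlea, carbonic anhydrases and bicarbonate transporters of the lateral wall and supporting cells help to set the pH of the fluids around the hair cells, and outer hair cells, the sensory cells that amplify sound, must extrude metabolic acid themselves.

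All mice carried PrestinCreERT2/+ and RiboTagHA/+, and received tamoxifen, dosed by body weight at 3 mg for each 40 g before 21 days of age and 9 mg for each 40 g from then on. Cre then tags the ribosomal protein Rpl22 with haemagglutinin in the cells that express prestin, so that the tag depends on the prestin locus and on recombination. RNA on tagged ribosomes pulled down with an antibody (IP) was compared with total RNA from whole cochleae (input) at P8, P14, P28, 6 weeks and 10 weeks, with 2 libraries per fraction at each age and 3 at 10 weeks. That gave 11 IP and 11 input libraries; untagged control mice and whether cochleae were pooled were not given in the sources used here, and the dose of tamoxifen changed with age.

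Values below are CPM over reads counted to genes, with trimmed-mean (TMM) scaling. Each library had 14978013 to 39907763 reads assigned to genes. Of the 44 members, 37 reached a scaled CPM of 1 in at least 2 libraries and were tested; log2 differences are of log2(CPM + 1), which understates the change of low genes. All 7 outer hair cell markers were higher in IP than in input (median log2 difference 2.22), with summed levels from 332 to 1384 CPM in IP and from 97.5 to 252 CPM in input. Prestin itself averaged 23.9 ± 27.2 CPM in IP and 7.35 ± 4.27 CPM in input (SD, n = 11 each; limma adjusted p = 0.204). Of 4 genes set as pulldown checks (Slc26a5, Rpl22, Ikzf2 and Ocm), 2 were higher in IP and 1, Rpl22, was lower. The 2 higher ones, Ikzf2 and Ocm, are also among the 7 outer hair cell markers. Of the 4 checks, 2 were higher and 0 lower with CPM as deposited, and 2 higher and 1 lower without TMM scaling. RNA of other cells remained in IP: the summed fibrocyte and mesenchyme markers ran from 3107 to 13580 CPM in IP and from 8701 to 30520 CPM in input, and strial markers from 717 to 2293 CPM in IP and from 1525 to 3625 CPM in input. An IP level is therefore that of a pulldown enriched for outer hair cells, and in these bulk samples fewer cells of a type and less RNA per cell cannot be told apart. P8 input replicate 2, P14 IP replicate 1 and P28 IP replicate 2 had the fewest genes at a deposited CPM of 1 or more (9853, 10810 and 10870, against 12393 to 15609 in the other libraries). For IP against input, counts of members are also given without them.

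The start regions of a few members are shown because their values carry the results: Slc4a10, which was higher at P14 than at P8 in both fractions, Slc9a8, which was higher in IP, and Car14, which was lower. Each runs from 250 bases before to 50 bases after the RefSeq start on GRCm38.p6, 5′ to 3′ on the gene's strand. RefSeq promoters were matched for 31 of the 44 members. The first of 2 Slc4a10 starts lies at chr2:62046265-62046564 on the plus strand, Slc9a8 at chr2:167421460-167421759 on the plus strand and Car14 at chr3:95904636-95904935 on the minus strand. No motif match is capitalised, since neither motif searched was found in these.
Slc4a10: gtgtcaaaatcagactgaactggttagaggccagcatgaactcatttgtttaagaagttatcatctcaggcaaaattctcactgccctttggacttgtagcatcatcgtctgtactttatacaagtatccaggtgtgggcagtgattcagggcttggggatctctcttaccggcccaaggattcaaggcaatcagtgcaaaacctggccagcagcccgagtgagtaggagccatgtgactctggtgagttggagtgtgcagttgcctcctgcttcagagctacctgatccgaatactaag
Slc9a8: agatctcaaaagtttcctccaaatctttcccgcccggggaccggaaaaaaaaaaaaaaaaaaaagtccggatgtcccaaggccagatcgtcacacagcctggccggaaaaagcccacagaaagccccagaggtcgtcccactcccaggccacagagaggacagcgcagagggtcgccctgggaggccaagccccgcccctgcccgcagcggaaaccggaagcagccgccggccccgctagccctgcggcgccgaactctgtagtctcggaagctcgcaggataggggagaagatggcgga
Car14: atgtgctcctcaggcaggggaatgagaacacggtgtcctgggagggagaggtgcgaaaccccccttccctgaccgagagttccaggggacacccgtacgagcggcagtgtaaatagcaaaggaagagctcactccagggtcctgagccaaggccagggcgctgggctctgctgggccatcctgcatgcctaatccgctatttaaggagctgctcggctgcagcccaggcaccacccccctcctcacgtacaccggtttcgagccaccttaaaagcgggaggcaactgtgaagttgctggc
The Slc9a8 region held 22 CG pairs, the Car14 region 13 and the Slc4a10 region 4, where the median was 10 over the 37 member promoters and 7 over the 32851 promoters of the table. The motifs searched were CAGCTG, which reads the same on both strands, and AGGTCA on both strands. Each was present in 18.9% of the member promoters and in 16.3% of all promoters.

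Carbonic anhydrases gave the highest levels per length of exon in both fractions. Car2, the fast cytosolic enzyme, led with 229 ± 148 CPM per kb in IP and 304 ± 119 CPM per kb in input (SD, n = 11 each). Car14, a membrane-bound enzyme with its active site outside the cell, followed with 72.1 ± 23.3 CPM per kb in IP and 148 ± 28.2 CPM per kb in input. The next in IP were Car13 (43.95 ± 18.7 CPM per kb), Slc4a10 (31.3 ± 17.3 CPM per kb), Car11 (25.9 ± 17.0 CPM per kb) and Car12 (24.5 ± 9.99 CPM per kb), neighbours that lie within 1 SD of each other. At the other end, Slc26a6 and Slc9c1 had no read in any library, which allows up to 0.0128 CPM in IP and 0.00953 CPM in input (3 reads over all libraries of a fraction, counting error only). GENCODE tags Slc26a6 as a fragmented locus. Car5a, Car6 and Slc4a9 had no read in IP, which allows up to 0.0128 CPM, and in input Car5a reached 1.41 CPM, Car6 0.306 CPM and Slc4a9 0.171 CPM. Slc26a3 reached 1.08 CPM in 1 IP library and had no read in input, and Slc9b1 stayed at or below 0.720 CPM in IP and 0.393 CPM in input.

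The first question of the design is which of these transcripts were enriched on the tagged ribosomes. Averaged over the 5 ages, 13 of 37 tested members differed between IP and input by limma with Benjamini-Hochberg adjustment over all genes, 6 higher and 7 lower in IP. Of all 20176 genes tested, 19.0% were higher and 21.2% lower, so that the members' share of calls lies near the background. The median log2 difference was 0.01 over the 37 members and 0.00 over all genes. Without the 3 libraries with the fewest genes at a CPM of 1, 19 members passed, 8 higher and 11 lower, and 4788 genes were higher and 4666 lower. Slc4a7, a sodium bicarbonate cotransporter, and Slc9a8, an exchanger of the Golgi, led the higher members. Car5b, a mitochondrial enzyme, and Car14 led the lower ones.

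**Figure D1:**
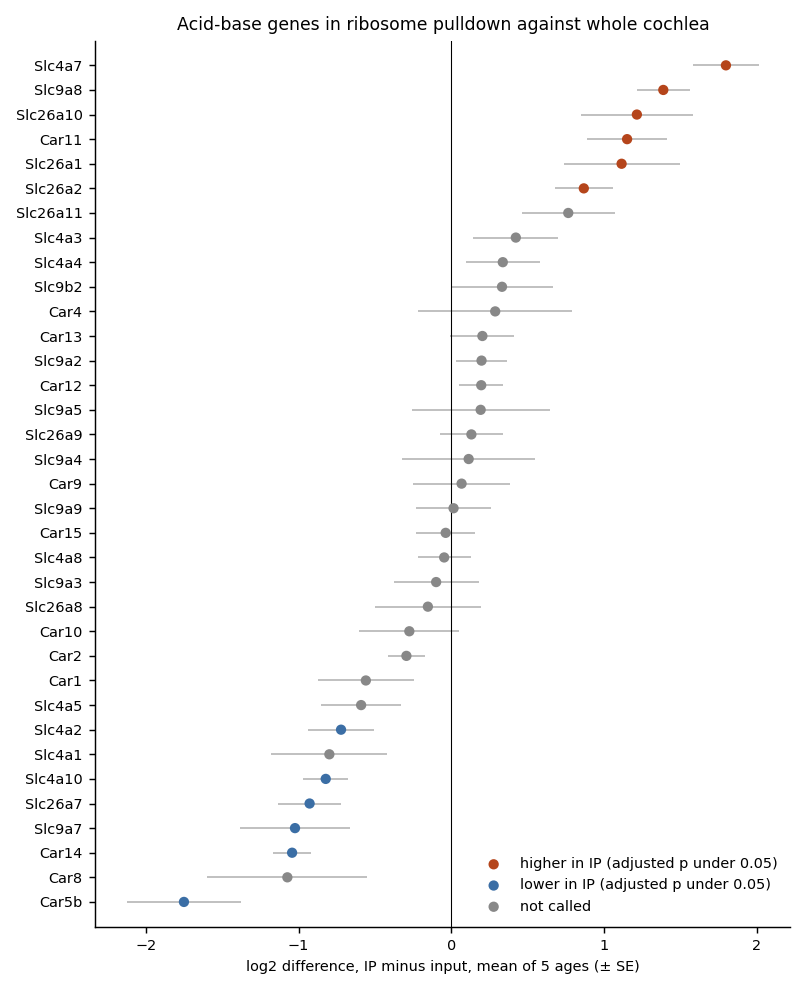
Log2 difference between IP and input, averaged over 5 ages, for 35 of the tested members (points, ± SE from the limma fit), ordered by size; colours mark the 6 members higher and 6 that were lower in IP at an adjusted p under 0.05. Slc4a7 (1.80) stands at one end and Car5b (-1.75) at the other.

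Among the bicarbonate transporters, Slc4a7 (ENSMUSG00000021733; chromosome 14, 14702279 to 14799940 on GRCm38) stood at 66.2 and 95.3 CPM in IP at P8, 260 and 87.3 at P14, 32.2 and 16.9 at P28, 68.3 and 93.4 at 6 weeks and 35.1, 50.5 and 53.8 at 10 weeks. In input its levels were 20.5 and 23.0, 9.91 and 21.7, 22.9 and 16.8, 17.4 and 15.6, and 15.4, 17.4 and 15.9 CPM in the same order of ages. All IP libraries lay above all input libraries of their age except at P28, where the fractions overlapped. The difference was 3.48-fold (log2 1.80, SE 0.22, limma adjusted p = 6.4e-07). Mice without Slc4a7 are known to lose hearing and sight. Slc4a10, a sodium bicarbonate transporter known from neurons and choroid plexus, was lower in IP by a log2 difference of -0.82 (SE 0.15, limma adjusted p = 0.00012), with IP below input at 4 of 5 ages. With CPM as deposited the Slc4a10 difference was -0.63 (limma adjusted p = 0.095) and without TMM scaling -0.51 (adjusted p = 0.055). Slc4a2, a chloride-bicarbonate exchanger of many cell types, ran from 40.4 to 193 CPM in IP (median 59.5) and from 87.7 to 162 CPM in input (median 106). Its log2 difference of -0.72 (SE 0.22, limma adjusted p = 0.011) also did not pass with CPM as deposited (-0.49, adjusted p = 0.222) or without TMM scaling (-0.41, adjusted p = 0.188), and 13.7% of its exon bases overlap Fastk on the other strand.

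The remaining Slc4 members did not pass the test. Slc4a1, the exchanger of red blood cells, had a median of 8.66 CPM in IP (lowest 0, highest 82.9) and 14.7 CPM in input (5.47 to 34.9). Of 8 tested erythroid markers 6 were lower in IP, with sums from 71.8 to 995 CPM in IP and from 357 to 2265 CPM in input; their part in the Slc4a1 and Car1 values was not tested. Slc4a3, an anion exchanger of excitable tissue, had medians of 30.2 CPM in IP and 28.5 CPM in input. The electrogenic cotransporter Slc4a4 had medians of 45.9 CPM in IP (18.0 to 103) and 33.6 CPM in input (14.1 to 108), and the sodium-driven chloride-bicarbonate exchanger Slc4a8 34.1 CPM in IP and 29.5 CPM in input. Slc4a5, an electrogenic cotransporter of the choroid plexus, stayed at or below 3.12 CPM in IP and 3.15 CPM in input.

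Among the sodium-proton exchangers of endosomes and Golgi, Slc9a8 was higher and Slc9a7 lower in IP. Slc9a8 (ENSMUSG00000039463; chromosome 2, 167421712 to 167477000) stood at 65.4 and 71.4 CPM in IP at P8, 203 and 115 at P14, 57.0 and 153 at P28, 113 and 112 at 6 weeks and 76.2, 82.4 and 89.5 at 10 weeks. In input it stood at 24.6 and 25.6, 34.5 and 26.3, 45.0 and 78.9, 39.5 and 39.0, and 40.5, 38.0 and 35.8 CPM in the same order. IP lay above input at every age but P28, and the difference was 2.62-fold (log2 1.39, SE 0.17, limma adjusted p = 1.2e-06). Slc9a7, of the trans-Golgi network, was low, with medians of 0.489 CPM in IP and 3.77 CPM in input (difference of -1.02 on the log2 scale, limma adjusted p = 0.028). That call ended without any of 6 libraries: P14 IP replicate 1, 6wk IP replicate 2, P8 input replicate 1, P14 input replicate 2, P28 input replicate 1 or 6wk input replicate 1 (adjusted p from 0.0609 to 0.077). It also ended with a pseudocount of 0.25, no filter or no TMM scaling (adjusted p = 0.0629, 0.0511 and 0.0605).

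Slc9a9, of late endosomes, had medians of 28.5 CPM in IP and 25.5 CPM in input and a log2 difference of 0.01 (SE 0.25). At the plasma membrane, Slc9a2, of epithelia, had medians of 39.1 CPM in IP and 33.7 CPM in input, and Slc9a4, known from the stomach, 13.9 CPM in IP and 7.96 CPM in input. Without the 3 libraries with the fewest genes at a CPM of 1, the Slc9a4 log2 difference was 0.91, against 0.11 in the main fit. The same fit gave 0.84 for Slc26a11, -1.06 for Slc4a1, -0.37 for Car2 and -0.96 for Car8. In the main fit these were 0.77, -0.80, -0.29 and -1.07. Slc9a5, known from the brain, had medians of 5.67 CPM in IP and 3.54 CPM in input, and Slc9a3, of kidney and gut epithelium, stayed at or below 6.80 CPM in IP and 3.59 CPM in input. Exons of Slc9a4 overlap Gm37435 on the other strand over 16.7% of their bases.

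Of 7 tested Slc26 anion transporters, 3 were higher and 1 lower in IP. Slc26a2, a sulphate transporter needed by cartilage, ran from 36.0 to 285 CPM in IP (median 82.5) and from 37.8 to 75.8 CPM in input (median 46.6), with IP above input at 4 of 5 ages and overlap at 10 weeks. The log2 difference was 0.87 (SE 0.19, limma adjusted p = 0.00085). Of 6 bone and cartilage markers, 4 were lower in IP (1 of 6 with CPM as deposited or without TMM scaling) and none higher. Their sums ran from 117 to 21130 CPM in IP (median 644) and from 145 to 19150 CPM in input (median 404). The part of these cells in the Slc26a2 difference was not tested. Slc26a1, another sulphate transporter, had medians of 4.72 CPM in IP and 0.829 CPM in input (difference of 1.11 on the log2 scale, limma adjusted p = 0.023). The Slc26a1 call ended without P8 input replicate 2 (adjusted p = 0.0601), without 6wk IP replicate 1 (0.0533), with a pseudocount of 0.25 (0.0688) and in edgeR (0.15) and DESeq2 (0.0611). Slc26a10 had a median of 1.73 CPM in IP (0 to 16.9) and 0.0921 CPM in input (0 to 0.749), with a log2 difference of 1.21 (SE 0.36, limma adjusted p = 0.011). Its exons overlap B4galnt1 on the other strand over 17.8% of their bases, and since the strand used in counting was not given, its reads are uncertain. Slc26a7, a chloride transporter, ran from 3.95 to 47.3 CPM in IP (median 27.3) and from 10.8 to 67.8 CPM in input (median 34.9). It was lower in IP (log2 -0.93, SE 0.21, limma adjusted p = 0.001), which was -0.67 with CPM as deposited (adjusted p = 0.13) and -0.61 without TMM scaling (adjusted p = 0.069). Slc26a11, an anion transporter, had medians of 15.6 CPM in IP and 7.03 CPM in input and missed the threshold (log2 0.77, limma adjusted p = 0.05003). Slc26a11 passed in limma with replicate numbers as a block (adjusted p = 0.0385), with no filter (0.0452) and without TMM scaling (0.028). It did not pass with CPM as deposited, in edgeR or in DESeq2. Slc26a8, of sperm, stayed at or below 4.77 CPM in IP and 4.42 CPM in input, and Slc26a9, a chloride channel of stomach and airway, at or below 2.10 CPM in IP and 1.42 CPM in input.

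Among the carbonic anhydrases with an active site outside the cell, Car14 (ENSMUSG00000038526; chromosome 3, 95897768 to 95904691) was the only 1 of 5 tested that passed. It stood at 126 and 131 CPM in IP at P8, 267 and 163 at P14, 196 and 318 at P28, 155 and 146 at 6 weeks and 195, 163 and 158 at 10 weeks. In input it stood at 280 and 251, 486 and 372, 336 and 399, 376 and 353, and 414, 474 and 405 CPM in the same order. Every IP library lay below every input library of its age, at all 5 ages (log2 -1.04, SE 0.12, limma adjusted p = 5.2e-07). Car14 exons overlap Aph1a on the other strand over 17.5% of their bases. Of 8 strial markers, 6 were lower and 1 higher in IP (4 lower and 1 higher with CPM as deposited or without TMM scaling). Of 5 fibrocyte and mesenchyme markers 4 were lower, and of 5 spiral ganglion neuron markers 4 were lower as well. The part of these cells in the Car14, Slc26a7 and Slc4a10 differences was not tested. Car12 did not pass (medians 165 CPM in IP and 165 CPM in input). Car4, anchored to the membrane by a lipid, had medians of 1.53 CPM in IP (0 to 20.6) and 1.57 CPM in input (0.0342 to 8.79). Car9, an enzyme induced by low oxygen, and Car15 stayed at or below 5.28 and 2.03 CPM in IP and 3.14 and 1.16 CPM in input; 65.7% of the Car15 exon bases overlap Gm20518 on the same strand.

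Inside the cell, the mitochondrial enzyme Car5b had the largest decrease in IP, with a median of 1.99 CPM in IP (0 to 6.49) and 7.98 CPM in input (4.78 to 14.6). IP lay below input at all 5 ages, and the level was 3.36-fold lower on the log2(CPM + 1) scale (log2 -1.75, SE 0.37, limma adjusted p = 0.00064). Car13, a cytosolic enzyme, had medians of 99.2 CPM in IP (37.4 to 171) and 84.8 CPM in input (49.8 to 126), and Car1, a red blood cell enzyme, 0.990 CPM in IP and 1.84 CPM in input; neither passed. Car2 did not pass over all ages (log2 -0.29, limma adjusted p = 0.053). It did with replicate numbers as a block (limma adjusted p = 0.038), with a pseudocount of 0.25 (limma, 0.0411) and in DESeq2 (0.0311). It did not with CPM as deposited, without TMM scaling or in edgeR. Of the inactive relatives, Car11 ran from 25.6 to 116 CPM in IP (median 36.3) and from 12.9 to 40.7 CPM in input (median 18.3). Car11 was higher in IP at 4 of 5 ages, with overlap at P28 (2.22-fold, log2 1.15, SE 0.26, limma adjusted p = 0.0012). Car8, abundant in cerebellar Purkinje cells, had medians of 5.39 CPM in IP (0 to 38.0) and 12.9 CPM in input (3.37 to 88.9), and Car10 10.0 CPM in IP and 14.7 CPM in input; neither passed.

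**Figure D2:**
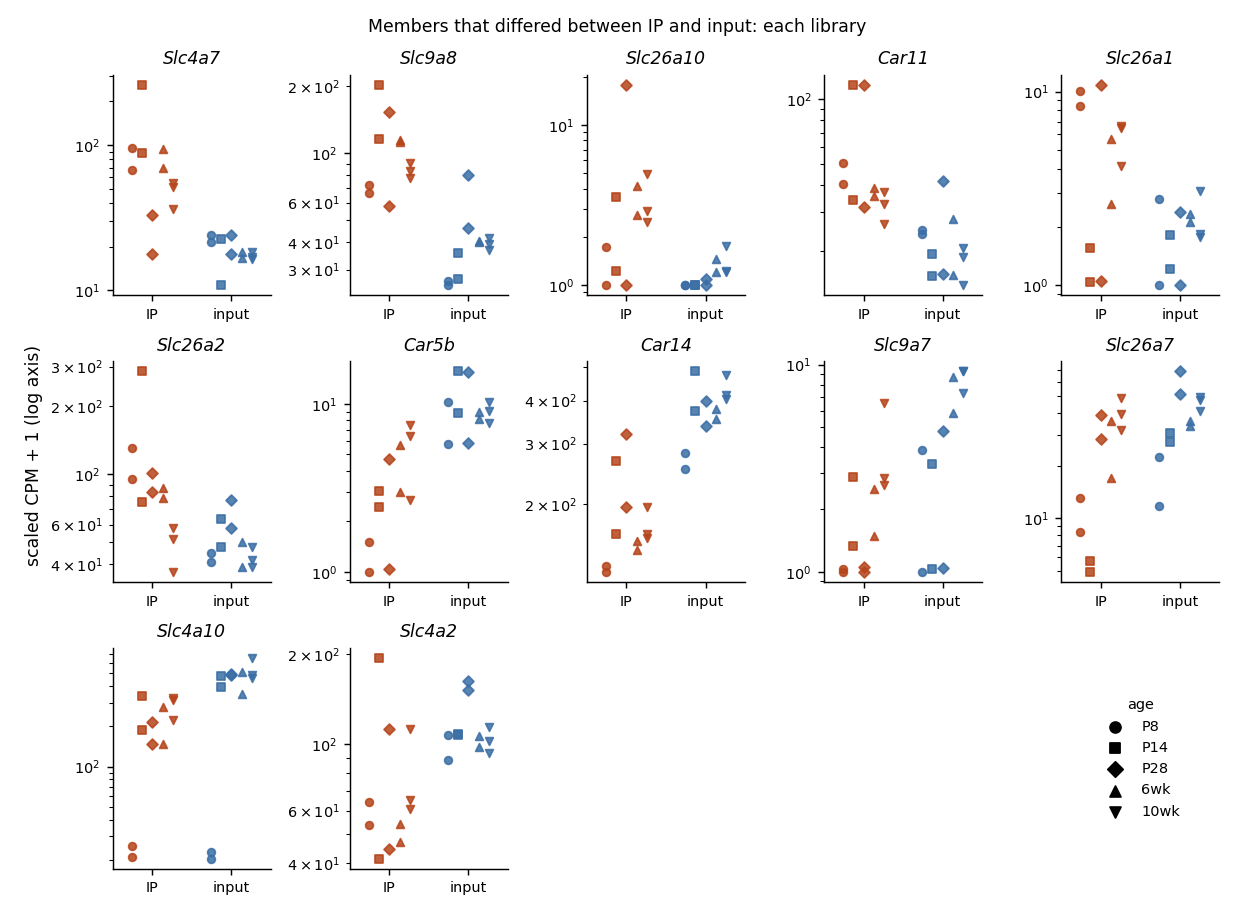
Scaled CPM + 1 (log axis) in each of the 22 libraries for 12 of the members that differed between IP (left in each panel) and input (right), with a symbol for each age. For Car14 and Car5b every IP point lies below the input points of the same age, and for Slc4a7 the fractions overlap at P28.

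Scaling bears on the balance of these calls. With CPM as deposited, 9 members passed, 6 higher and 3 lower, and 3747 genes were higher and 2340 lower in IP, against 3835 higher and 4270 lower with TMM scaling. Without TMM scaling 10 members passed, 8 higher and 2 lower, and 4686 genes were higher and 2464 lower. The median of all genes shifted by 0.13 with CPM as deposited and by 0.19 without TMM scaling. Slc4a7, Slc9a8, Slc26a2, Slc26a10, Car11, Car5b and Car14 passed under every alternative tried. Across the 37 members, exon length and the IP difference had a Spearman rho of 0.149, and across 15383 protein-coding genes tested 0.357; genes are not independent, and this is a description.

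The second question is how levels changed as hearing matured, between P8 and P14 and later. In IP at P28 to 10 weeks, 4 of 37 members were higher and 2 lower than at P8 and P14 by limma, against 4.05% of all genes higher and 5.52% lower. In input, 4 members were higher and 0 lower, against 3.34% and 2.09% of all genes; 12 members had an unadjusted p under 0.05 in input, and edgeR called 3 members and DESeq2 7. Leaving out the 3 libraries with the fewest genes at a CPM of 1 leaves no replicate of P14 IP, P28 IP and P8 input. Calls by age are therefore not counted for that fit. Slc4a10 and Slc26a7 were higher in both fractions. With 3 input and IP libraries at 10 weeks and 2 at other ages, ages were weighted equally. With CPM as deposited, 3 members were higher and 0 lower in IP, as 400 genes were higher and 213 lower, against 818 and 1113 with TMM scaling; without TMM scaling 3 members were higher and 0 lower, with 769 genes higher and 280 lower. In input 575 genes were higher and 109 lower with CPM as deposited and 673 and 165 without TMM scaling, against 674 and 421 with it. The median of all genes shifted by 0.14 and 0.21 in IP and by 0.38 and 0.22 in input under these scalings. Across P8 to 10 weeks the cochlea itself changed: bone and cartilage marker sums ran from 117 to 815 CPM in IP from P28 on and from 3277 to 21130 CPM in IP at P8 and P14, and from 145 to 721 CPM in input from P28 on and 4869 to 19150 CPM in input at P8 and P14. Their part in the age differences was not tested.

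Slc4a10 (ENSMUSG00000026904; chromosome 2, 62046462 to 62326730) stood at 20.0 and 24.2 CPM in IP at P8, 336 and 186 at P14, 214 and 147 at P28, 277 and 146 at 6 weeks and 316, 325 and 220 at 10 weeks. In input it stood at 19.4 and 21.8, 396 and 477, 491 and 486, 510 and 351, and 480, 645 and 461 CPM in the same order. Each library from P14 on lay above each P8 library in both fractions, at 146 to 336 CPM in IP and 351 to 645 CPM in input. The later ages were 2.86-fold higher in IP (log2 1.51, SE 0.22, limma adjusted p = 0.00013) and 4.93-fold higher in input (log2 2.30, SE 0.22, adjusted p = 3.5e-07). Because most of that difference lay between P8 and P14, those ages were also compared directly, a comparison added after the values were seen. At P14 against P8, 3 members were higher in IP (4.86% of all genes higher, 2.13% lower) and 2 in input (1.32% higher, 0.307% lower), and no member was lower. Without P8 input replicate 2, P14 IP replicate 1 and P28 IP replicate 2, no replicate of P14 IP and P8 input is left, and calls are not counted. In that fit the log2 differences in IP were -3.24 for Slc26a1 and 2.23 for Car10. With CPM as deposited, Slc4a10 was higher and Slc26a1 lower in IP (Slc26a1 log2 -2.63, limma adjusted p = 0.035), with 160 genes higher and 202 lower, against 980 and 430 with TMM scaling. In input 293 genes were higher and 2 lower, against 266 and 62. The median of all genes shifted by -0.38 in IP and by 0.80 in input with CPM as deposited, and by -0.07 in IP and 0.41 in input without TMM scaling, which gave 294 genes higher and 198 lower in IP and 316 and 4 in input. Slc4a10 was 10.9-fold higher at P14 in IP (log2 3.45, SE 0.35, limma adjusted p = 4.0e-06) and 20.2-fold higher in input (log2 4.34, SE 0.35, adjusted p = 1.3e-07). These calls held under every alternative tried. Spiral ganglion neuron markers moved with it, at 1124 and 509.9 CPM in IP at P14 and 103 and 188 CPM in IP at P8, and at 1677 and 1275 CPM in input at P14 and 119 and 366 CPM in input at P8. Schwann cell markers were at 4272 and 2024 CPM in IP at P14 and 490 and 921 CPM in IP at P8. Fibrocyte and mesenchyme marker sums were at 13580 and 7206 CPM in IP at P14 and 4630 and 5696 CPM in IP at P8, and at 30520 and 22520 CPM in input at P14 and 8701 and 9420 CPM in input at P8. Of the 5 markers in that sum, 2 were called higher and 1 lower at P14 in each fraction. Strial marker sums were at 2293 and 1321 CPM in IP at P14 and 743 and 766 CPM in IP at P8, and at 3474 and 2948 CPM in input at P14 and 1582 and 1525 CPM in input at P8. Of 8 strial markers, 2 were called higher and 0 lower at P14 in IP, and 2 higher and 1 lower in input. The part of these cell types in the Slc4a10, Car2 and Car10 differences was not tested.

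**Figure D3:**
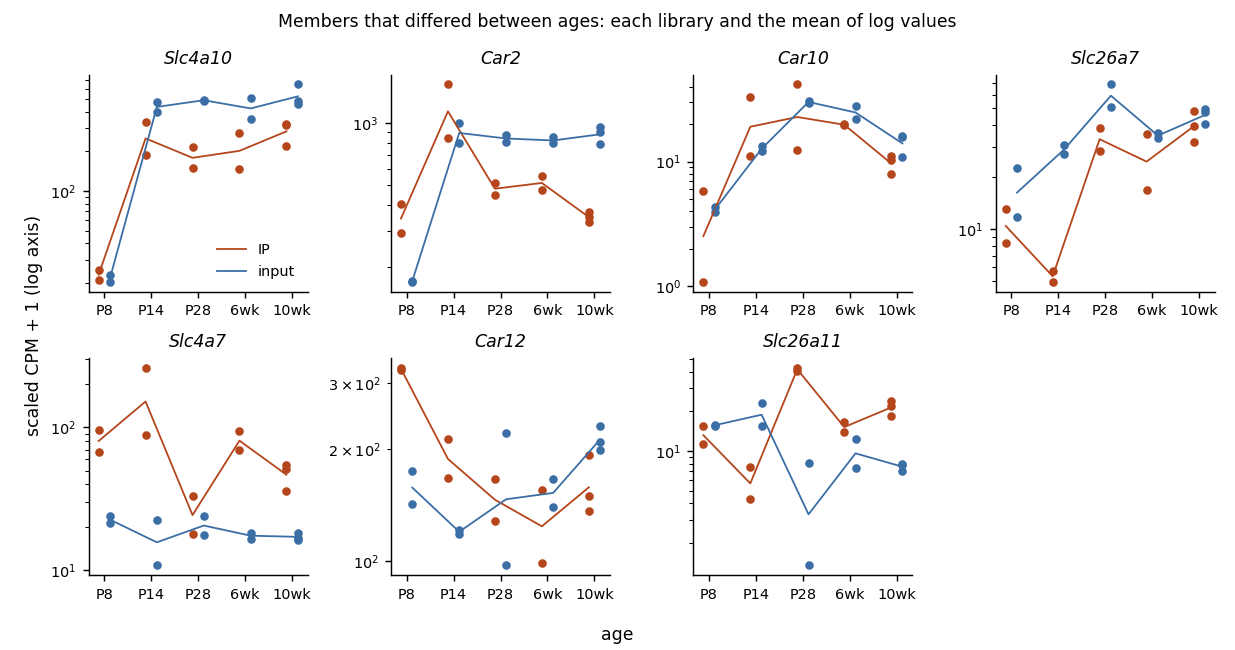
Scaled CPM + 1 (log axis) at P8, P14, P28, 6 weeks and 10 weeks for 7 members, with a point for each IP library (left, red) and input library (right, blue) and lines through the means of log values. Slc4a10 is at 19.4 to 24.2 CPM in all 4 P8 libraries and at 146 CPM or more in every later one.

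Car2 also changed between P8 and P14 in both fractions. It stood at 292 and 403 CPM in IP at P8, 1535 and 841 at P14, 513 and 447 at P28, 550 and 474 at 6 weeks and 349, 367 and 331 at 10 weeks. In input it stood at 171 and 169, 1001 and 796, 808 and 871, 848 and 794, and 954, 905 and 787 CPM in the same order. At P14 against P8 it was 3.31-fold higher in IP (log2 1.73, SE 0.27, limma adjusted p = 0.00061) and 5.22-fold higher in input (log2 2.39, SE 0.27, adjusted p = 3.3e-05). From P14 on input levels overlapped between ages, while every IP level from P28 on lay below both P14 IP levels. The P14 IP difference was 0.97 with CPM as deposited (adjusted p = 0.54) and 1.33 without TMM scaling (adjusted p = 0.116). Car2 was 2.17-fold higher at the later ages in input (log2 1.12, SE 0.17, limma adjusted p = 0.00025).

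Car10, an inactive relative found at synapses and in the brain, was at 32.0 and 9.99 CPM in IP at P14 and at 0.0875 and 4.86 CPM in IP at P8 (log2 2.92, SE 0.76, limma adjusted p = 0.021). That call did not pass without P8 IP replicate 1 (log2 1.70, adjusted p = 0.241) or P14 IP replicate 1 (2.18, adjusted p = 0.188), without the 3 libraries with the fewest genes at a CPM of 1 (2.23, adjusted p = 0.0886) or in the IP libraries alone (adjusted p = 0.153). It also ended with CPM as deposited (1.96, adjusted p = 0.27), without TMM scaling (2.62, adjusted p = 0.101) and in edgeR (3.09, adjusted p = 0.106). In input Car10 stood at 12.3 and 11.1 CPM at P14 and at 3.30 and 2.91 CPM at P8. Slc26a7 stood at 7.32 and 12.1 CPM in IP at P8, 4.71 and 3.95 at P14, 27.3 and 37.7 at P28, 34.7 and 15.9 at 6 weeks and 38.4, 47.3 and 30.7 at 10 weeks. Each later IP library lay above each earlier one, and the difference of 4.26-fold (log2 2.09, SE 0.30, limma adjusted p = 0.00014) held under every alternative tried. In input Slc26a7 ran from 32.6 to 67.8 CPM from P28 on and from 10.8 to 29.5 CPM before (log2 1.07, limma adjusted p = 0.039). That call ended without any of 11 single libraries, 9 of them input libraries, with an adjusted p of up to 0.205 without P8 input replicate 1, and with CPM as deposited (0.0727) and in edgeR (0.0845).

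The other 4 age differences in IP each ended when certain single libraries were left out. Outer hair cell marker sums ran from 332 to 1153 CPM in IP from P28 on and from 636 to 1384 CPM in IP at P8 and P14, and their part in these differences was not tested. Slc4a7 was lower at the later ages in IP (log2 -1.29, SE 0.31, limma adjusted p = 0.012), a call that ended without P14 IP replicate 1 (log2 -0.93, adjusted p = 0.0927), whose Slc4a7 level of 260 CPM was the highest, or P8 IP replicate 2 (-1.16, adjusted p = 0.0768). It also ended with CPM as deposited (-1.03, adjusted p = 0.276), without TMM scaling (-0.97, adjusted p = 0.148), without the 3 libraries with the fewest genes at a CPM of 1 (-0.77, adjusted p = 0.111) and in the IP libraries alone (-1.20, adjusted p = 0.0524). Car12, a membrane-bound enzyme, stood at 325 and 329 CPM in IP at P8, 211 and 165 at P14, 165 and 127 at P28, 154 and 97.9 at 6 weeks and 135, 191 and 149 at 10 weeks. Both P8 libraries lay above all others (log2 -0.81, SE 0.21, limma adjusted p = 0.018). The Car12 call ended without P8 IP replicate 2, P14 IP replicate 1, 6wk IP replicate 2 or P8 input replicate 2 (adjusted p from 0.0582 to 0.069), with CPM as deposited (-0.56, adjusted p = 0.577) without TMM scaling (-0.49, adjusted p = 0.418), without those 3 libraries (-0.67, adjusted p = 0.1) and in the IP libraries alone (-0.72, adjusted p = 0.0989). Slc26a11 had 12.8 to 41.7 CPM in IP from P28 on and 3.29 to 14.4 CPM before, ranges that overlap (log2 1.46, limma adjusted p = 0.041), a call that ended under 20 of 31 alternatives with an adjusted p of up to 0.153. Slc9b2, a sodium-proton exchanger known from osteoclasts, had 1.22 to 10.7 CPM in IP from P28 on and 0 to 1.01 CPM before (log2 1.74, limma adjusted p = 0.028). It ended without P8 IP replicate 2, P14 IP replicate 1 or 6wk IP replicate 1 (adjusted p from 0.0797 to 0.118), without those 3 libraries (0.0817), in the IP libraries alone (0.103) and in edgeR (0.144). Osteoclast marker sums were 16.4 to 65.1 CPM in IP from P28 on and 85.6 to 224 CPM in IP before. The part of osteoclasts in the Slc9b2 difference was not tested.

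The third question is whether the difference between fractions itself changed with age. Car2 was the 1 member that passed, lower in the later IP libraries relative to input, against 0.0397% of all genes higher and 0.0991% lower. Its log2 difference between IP and input was 1.01 at P8, 0.35 at P14, -0.81 at P28, -0.68 at 6 weeks and -1.33 at 10 weeks (SE 0.27, and 0.22 at 10 weeks). IP lay above input in both P8 libraries, overlapped it at P14 and lay below it at P28, 6 weeks and 10 weeks. The change from P8 and P14 to the later ages was -1.62 (SE 0.25, limma adjusted p = 0.0056). It was -1.95 with CPM as deposited (adjusted p = 0.716), where 0 genes passed and 1162 had an unadjusted p under 0.05, and -1.63 without TMM scaling (adjusted p = 0.343); leaving out any single library kept the call. The Car12 differences were 1.06, 0.65, -0.00461, -0.30 and -0.43 in the same order of ages, and their change of -1.10 did not pass (limma adjusted p = 0.146). Those of Slc26a11 were -0.25, -1.73, 3.65, 0.66 and 1.49, and their change of 2.93 missed the threshold (limma adjusted p = 0.064). At P28 Slc26a11 stood at 39.5 and 41.7 CPM in IP and at 7.03 and 0.361 CPM in input. The lower input value, in P28 input replicate 2, rests on 8 reads. The Slc26a11 change passed with replicate numbers as a block (limma adjusted p = 0.037), with no filter (limma, 0.0429) and in DESeq2 (0.0023). It did not with CPM as deposited, without TMM scaling or in edgeR. The differences of Slc4a10 were 0.10, -0.80, -1.45, -1.07 and -0.88.

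**Figure D4:**
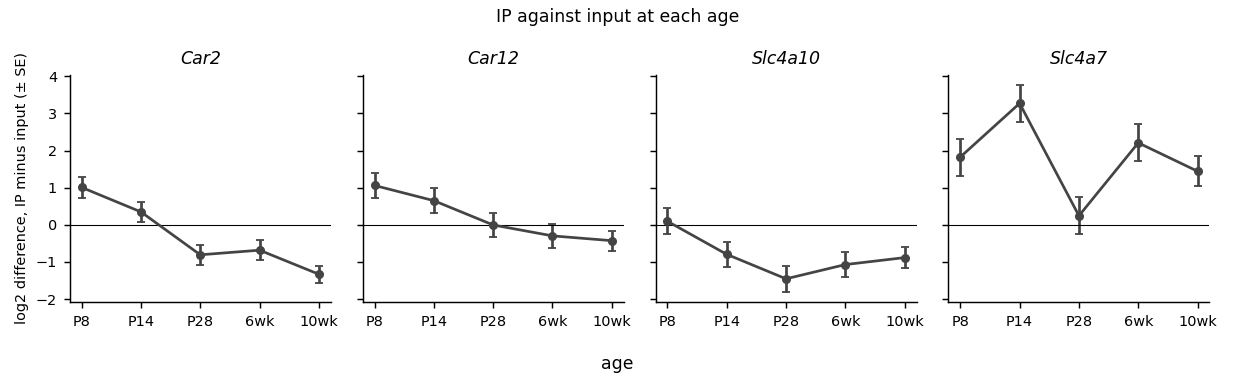
Log2 difference between IP and input (points, ± SE from the limma fit) at P8, P14, P28, 6 weeks and 10 weeks for 4 members. Car2 lies above 0 at P8 (1.01) and below it at 10 weeks (-1.33), and Slc4a7 is highest at P14 (3.27) and near 0 at P28 (0.24).

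The calls in 3 further lists of acid-base genes, which depended on the scaling, stand against 19.0% of all genes higher and 21.2% lower in IP. Of 22 tested subunits of the V-ATPase, the proton pump of lysosomes and some plasma membranes, 1 was higher and 16 were lower in IP, with a median log2 difference of -0.86. With CPM as deposited 1 was higher and 8 were lower of 21 tested, and without TMM scaling 1 and 10 of 22. The lower ones included Atp6v1f (34.5 ± 18.0 CPM in IP and 125 ± 34.7 CPM in input, lower by a log2 difference of -1.94, limma adjusted p = 5.5e-08) and Atp6v1g1 (log2 -1.84, limma adjusted p = 1.6e-08), subunits of the part that hydrolyses ATP, and the higher one was Atp6v0e, of the membrane part (log2 1.57, limma adjusted p = 2.7e-05). Of 13 tested regulators, 2 were higher and 5 lower in IP (median -0.38), a count that was 2 higher and 1 lower with CPM as deposited and without TMM scaling. Oxsr1 and Wnk1, kinases that control chloride transporters, were higher by log2 0.90 and 0.58. Ahcyl2, a relative of IRBIT that binds bicarbonate transporters, averaged 367 ± 174 CPM in IP and 1347 ± 677 CPM in input (SD, n = 11 each; log2 -1.71, limma adjusted p = 8e-10). Ahcyl2 was higher at P14 than at P8 in IP (log2 1.30, limma adjusted p = 0.0085) and input (2.35, adjusted p = 7.0e-05). Of 13 tested genes of lactate and proton transport and acid sensing, 2 were higher, the proton-gated channels Asic1 (log2 1.18) and Asic2 (0.97), and 5 lower, among them Bsg (-1.48) and Emb (-1.20), partners of the lactate carriers (limma, median of the list -0.37). With CPM as deposited 1 of these was higher and 2 were lower, and without TMM scaling 2 and 3.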

How the data were processed

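Libraries were made with a directional kit, and reads were aligned with TopHat to GRCm38 (version not given), per the submitters' processing notes. How reads were counted, and with which strand setting, is not given in the sources used here. The authors deposited 1 table of CPM per library, each scaled to the total of all its entries, 5 of which name no gene. Those entries held 32.9 to 72.3% of input reads and 35.2 to 56.6% of IP reads and were left out of totals and tests. Among them, reads assigned to no feature made up 20.15 to 47.71% of IP reads (median 30.49%) and 11.05 to 20.36% of input reads (median 12.23%). The part of that difference in the IP against input calls was not tested. Every value (100%) came out as a whole number of reads within 0.01, so that reads could be recovered. Total reads per library ran from 30757875 to 71023032.

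CPM was recomputed over gene reads with edgeR 4.0.16 TMM factors, because in P8 input replicate 2 a single gene, which overlaps ribosomal RNA, took 58.3% of reads assigned to genes. The test on log2(CPM + 1) covered the 20176 genes that reached a scaled CPM of 1 in 2 or more libraries. limma 3.58.1 in R 4.3.3 fitted 10 group means over 22 libraries with a trended prior, two-sided, and p-values were adjusted by Benjamini-Hochberg over these genes, with calls under 0.05. The p-values rest on the design text's biological duplicates or triplicates. Its P21 is P28 in the labels, which were used. Alternatives were a pseudocount of 0.25, no filter, CPM as deposited, CPM without TMM scaling, a replicate block, each fraction alone, leaving out the 3 libraries with the fewest genes at a CPM of 1, each library left out, and edgeR and DESeq2 1.42.0 on recovered reads. The procedure was tested on simulated data. The members, lists and alternatives were chosen with earlier results of these data known, and P14 against P8 was added after its values were seen. The values of some members are not reported here, while counts over the members include them. The text names the other members, pulldown checks and the list genes with the largest called changes. Exons, overlaps and coordinates are from GENCODE on GRCm38, counted from 1.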

Additional observations from a re-analysis of the deposited data

Results flagged for a closer look

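The difference between IP and input for Car2 changed with age in the interaction term of the limma fit with TMM scaling. It was lower by 1.62 on the log2 scale at P28 to 10 weeks than at P8 and P14 (-1.62, SE 0.25, limma adjusted p = 0.0056). The change did not pass with CPM as deposited (limma adjusted p = 0.716) or without TMM scaling (limma adjusted p = 0.343). Car2 was at 331 to 550 CPM in IP and 787 to 954 CPM in input at the later ages, and at 292 to 1535 CPM in IP and 169 to 1001 CPM in input at P8 and P14.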

How the results depend on the processing

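Of 29 member calls tried under 885 alternatives in all, 797 values kept the call, 88 lost it and 0 changed sign; 14 calls passed under every alternative. IP and input libraries of the same number deviated together weakly (Pearson r 0.0398 to 0.293, under 0.1 at P8, P14 and P28 and 0.106 to 0.204 at 10 weeks). Libraries of different numbers had an r of -0.293 to -0.0161, which at ages with 2 replicates mirrors the same-number value. Each 10wk IP library correlated best with its own number. The main fit did not take the numbers as pairs, and the replicate block did. With the replicate block, the change of enrichment was called for 2 members and 78 genes, against 1 and 28, Slc26a11 being added (log2 2.93, limma adjusted p = 0.037), IP against input for 15 members, against 13, Car2 (adjusted p = 0.038) and Slc26a11 (0.0385) being added, and P14 against P8 in IP for 4, against 3, Slc26a1 being added (log2 -2.86, adjusted p = 0.0479). No called member was lost.
For P28 to 10 weeks against P8 and P14 in IP (6 members, 1931 genes), CPM as deposited called 3 and 613, no TMM scaling 3 and 1049, DESeq2 11 and 3136, and the 11 IP libraries alone 2 and 592. In input (4 and 1095), CPM as deposited called 684 genes, DESeq2 7 members and 2006 genes, and the fraction alone 9 and 2622. For the change of enrichment (1 and 28), no filter called 2 and 70, CPM as deposited 0 and 0, no TMM scaling 0 and 0 (1380 genes at an unadjusted p under 0.05), edgeR 59 genes, DESeq2 5 members and 520 genes, and 17 genes were called without the 3 libraries with the fewest genes at a CPM of 1. For P14 against P8 in IP (3 and 1410), CPM as deposited called 362 genes, no TMM scaling 1 member and 492 genes, DESeq2 5 and 2415, and the fraction alone 297 genes. In input (2 and 328), DESeq2 called 831 genes and the fraction alone 4 members and 1354 genes.
With each library left out in turn, IP against input called 12 to 16 members and 7309 to 8948 genes. The age comparison called 2 to 12 members and 916 to 4183 genes in IP, with the fewest members without P14 IP replicate 1 and the most genes without P14 IP replicate 2. In input it called 2 to 8 members and 612 to 1558 genes, fewest without P14 input replicate 1. The change of enrichment was called for 1 to 5 members and 6 to 1156 genes, most without P14 IP replicate 2. P14 against P8 called 2 to 9 members and 418 to 3663 genes in IP and 2 to 2 members and 103 to 539 genes in input. The cause of these shifts was not tested. Groups of 2 or 3 libraries, and counts of a few reads for the low members, limit what could be detected.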
